A study of Mus musculus with 6 samples.

Results

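Phosphoinositide 3-kinases (PI3-kinases) are lipid kinases, and 10 genes for their catalytic and regulatory subunits are described here in kidneys of diabetic mice with and without atorvastatin. The genes are Pik3ca, Pik3cb, Pik3cd, Pik3cg, Pik3r1, Pik3r3, Pik3r5, Pik3r6, Pik3c2a and Pik3c2g, 10 of the 17684 genes in the table of gene counts. They were chosen by name with the difference in counts between the 2 groups of these libraries already known. That difference is therefore given as a description. Calls for these genes are counted only beside the share called over all genes, and nothing is read from them. The 4 subunits known mainly from leukocytes (Pik3cd, Pik3cg, Pik3r5 and Pik3r6) were set against the other 6, which are ubiquitous or tubular. All 10 genes had at least 10 counts in at least 3 libraries. Pik3r5, with 7, 24 and 10 counts in Db replicates 1 to 3, passed this filter only together with the Db + Ato10 libraries, where it was higher.

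RNA sequencing of kidney gave 3 libraries labelled Db and 3 labelled Db + Ato10. All 6 came from db/db mice, which lack a working leptin receptor and become obese and diabetic, on the strain labelled C57 BLKS/L, and were 50 weeks old. The Db group received normal saline for 40 weeks, and the Db + Ato10 group received atorvastatin, an inhibitor of HMG-CoA reductase, at 10 mg/kg per day for the same time. By the study's methods the mice were male, and the statin, suspended in saline, was dosed by gavage in weekly runs of consecutive days, not daily. One field of the sample records gives atorvastatin for all 6 mice, and the groups follow the field that tells saline from atorvastatin.

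Class I PI3-kinases make the membrane lipid PIP3, which recruits Akt and other kinases and carries the signal of insulin, growth factors, antigen receptors and chemokines. Class IA enzymes pair a catalytic subunit with a regulatory subunit that binds phosphotyrosine, whereas the class IB enzyme works with adaptors that respond to G protein subunits. In the kidney, the ubiquitous class IA subunits serve insulin signalling in tubule cells, and the delta and gamma enzymes are best known from white blood cells.

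Depth was similar in the 6 libraries, with totals from 11381678 to 14667909 counts. A level under 3 counts was not detectable, which is 0.198 to 0.260 CPM (counts scaled to library size, with TMM normalization) depending on the library. These floors cover counting error only. The library labelled Db replicate 1 had 2 counts over 4 Y-linked genes (Ddx3y, Eif2s3y, Kdm5d and Uty), while the other libraries had between 1419 and 2116, so its RNA goes against the stated sex. The Db + Ato10 libraries were unlike each other. The leading principal component held 71.1% of the variance and placed Db + Ato10 replicates 1, 2 and 3 at 107, 46.1 and -18.8, and the Db libraries between -55.4 and -26.9. Db + Ato10 replicate 3 was thus nearest to the Db group. Log2 fold changes and their medians are therefore also given with libraries left out where that changed the sign or moved the value by over 1.5 times.

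Pik3cd encodes the delta catalytic subunit of class IA, which acts downstream of antigen and cytokine receptors in lymphocytes and myeloid cells (NCBI Gene 18707). Its level was 1.43, 3.29 and 2.42 CPM in Db replicates 1 to 3 and 39.9, 15.3 and 3.78 CPM in Db + Ato10 replicates 1 to 3. Every Db + Ato10 library lay above every Db library, but replicate 3 did so by a small margin. Pik3cd averaged 2.38 ± 0.933 CPM across Db libraries (SD, n = 3) and 19.7 ± 18.5 CPM across Db + Ato10 libraries (SD, n = 3). The log2 fold change of Pik3cd from edgeR was 3.05 (standard error 0.85). Leaving out Db + Ato10 replicate 1 gave 2.02, leaving out Db + Ato10 replicate 3 gave 3.54, and leaving out Db replicate 1 gave 2.80. With both doubted libraries, Db replicate 1 and Db + Ato10 replicate 3, left out it was 3.28.

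Pik3cg encodes the gamma catalytic subunit, the only one of class IB, which chemokine receptors engage through G proteins (NCBI Gene 30955). It was measured at 0.874, 1.39 and 1.21 CPM in Db replicates 1 to 3 and at 27.5, 6.48 and 1.73 CPM in Db + Ato10 replicates 1 to 3. The order of the Db + Ato10 libraries was that of Pik3cd, and again the groups did not overlap. Pik3cg averaged 1.16 ± 0.261 CPM across Db libraries (SD, n = 3) and 11.9 ± 13.7 CPM across Db + Ato10 libraries (SD, n = 3). The log2 fold change of Pik3cg was 3.36 (standard error 0.99). Leaving out Db + Ato10 replicate 1 gave 1.84, leaving out Db + Ato10 replicate 3 gave 3.88, leaving out Db replicate 1 gave 3.21, and leaving out both doubted libraries gave 3.71. In bulk kidney RNA, a different number of leukocytes and a different amount of RNA per leukocyte cannot be told apart.

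Pik3r5 and Pik3r6 encode the adaptors of the gamma enzyme and are next to each other on chromosome 11 in the RefSeq table of assembly GRCm38.p6. Pik3r5 (NCBI Gene 320207) had 0.556, 2.08 and 0.808 CPM in Db replicates 1 to 3 and 57.2, 8.04 and 1.81 CPM in Db + Ato10 replicates 1 to 3. Db + Ato10 replicate 3 lay below Db replicate 2, so the groups overlapped. Relative to the Db mean, Pik3r5 was 49.8-fold in Db + Ato10 replicate 1, 7.0-fold in replicate 2 and 1.58-fold in replicate 3. Its log2 fold change of 4.28 (standard error 1.33) was the largest of the 10 genes and became 2.12 without Db + Ato10 replicate 1, 4.84 without Db + Ato10 replicate 3 and 4.50 without both doubted libraries. Pik3r6 (NCBI Gene 104709) had 1.59, 2.17 and 2.18 CPM in Db replicates 1 to 3 and 15.7, 3.24 and 1.89 CPM in Db + Ato10 replicates 1 to 3. For Pik3r6 too, Db + Ato10 replicate 3 lay inside the range of the Db group, and 1 library stood far above the rest. The log2 fold change of Pik3r6 was 1.81 (standard error 0.80) with all libraries and 0.39 without Db + Ato10 replicate 1, so that library set most of it. It was 2.26 without Db + Ato10 replicate 3 and 2.13 without both doubted libraries.

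**Figure D1:**
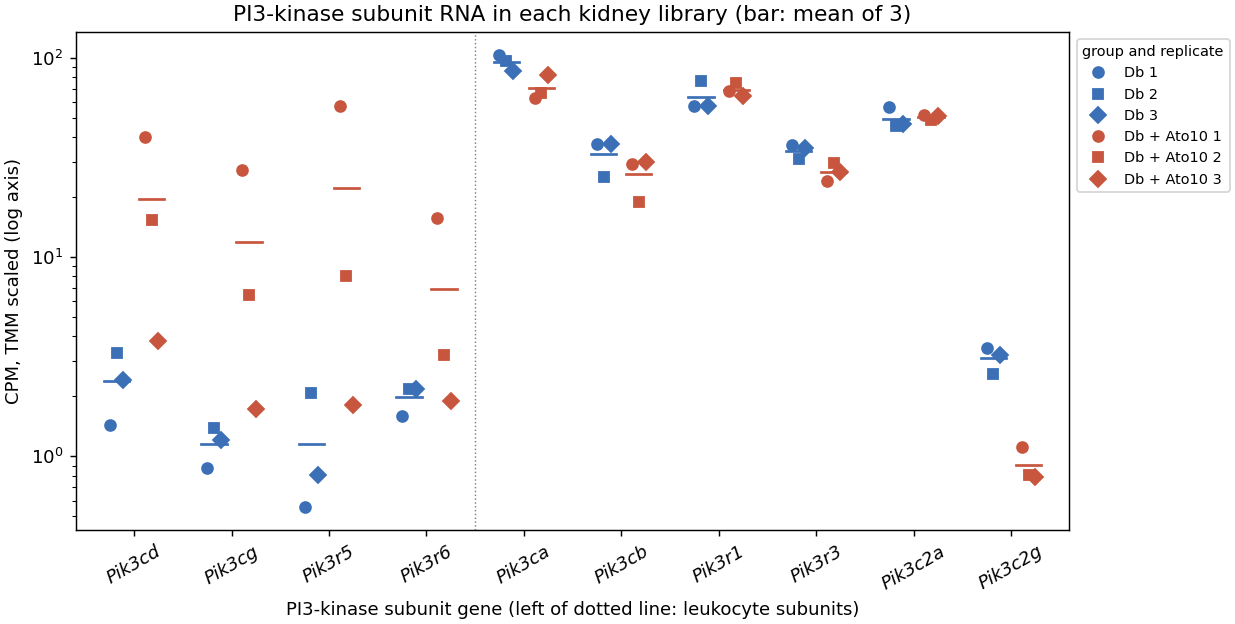
RNA level of the 10 PI3-kinase subunit genes in CPM on a log axis, with 1 point per library (blue for the Db group, red for the Db + Ato10 group, a marker shape per replicate) and a bar at the mean of 3 libraries. Pik3cd reached 39.9 CPM and Pik3r5 57.2 CPM in Db + Ato10 replicate 1, whereas Db + Ato10 replicate 3 stayed near the Db group for the leukocyte subunits, and Pik3c2g lay lower in each Db + Ato10 library.

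Pik3ca encodes the alpha catalytic subunit, the main carrier of the insulin signal to PIP3 (NCBI Gene 18706). Pik3ca had 104, 96.6 and 85.8 CPM in Db replicates 1 to 3 and 62.6, 66.8 and 82.2 CPM in Db + Ato10 replicates 1 to 3. All Db + Ato10 libraries were below all Db libraries, and replicate 3 only narrowly. Its log2 fold change was -0.44 (standard error 0.16), and between -0.55 and -0.35 when any 1 library was left out. Pik3cb (NCBI Gene 74769), the beta catalytic subunit that both receptor kinases and G protein subunits can engage, ranged from 25.3 to 36.8 CPM in the Db group and from 18.9 to 30.2 CPM in the Db + Ato10 group. These ranges overlapped, and the log2 fold change of Pik3cb was -0.33 (standard error 0.24), running from -0.49 without Db replicate 2 to -0.13 without Db + Ato10 replicate 2. Without both doubted libraries Pik3ca was at -0.49 and Pik3cb at -0.35.

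Among the class IA regulatory subunits, Pik3r1, which stabilizes the catalytic subunits and docks them to phosphorylated receptors, hardly differed (NCBI Gene 18708). Pik3r1 ranged from 57.3 to 76.7 CPM in the Db group and from 64.8 to 74.7 CPM in the Db + Ato10 group, with a log2 fold change of 0.12 (standard error 0.16). That value was 0.062, 0.28 and 0.048 without Db replicates 1, 2 and 3 in turn, and 0.10 without both doubted libraries. Pik3r3 (NCBI Gene 18710), a smaller regulatory subunit, had 36.4, 31.1 and 35.4 CPM in Db replicates 1 to 3 and 24.2, 29.6 and 26.8 CPM in Db + Ato10 replicates 1 to 3. The groups of Pik3r3 did not overlap, with Db replicate 2 and Db + Ato10 replicate 2 the closest pair. Its log2 fold change was -0.35 (standard error 0.14), between -0.42 and -0.27 with any 1 library left out and -0.30 without both doubted libraries.

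The class II enzymes act on endosomes and other internal membranes. Pik3c2a (NCBI Gene 18704), the widely expressed alpha enzyme, ranged from 45.7 to 56.8 CPM in the Db group and from 49.0 to 51.6 CPM in the Db + Ato10 group. The Db + Ato10 range of Pik3c2a lay within that of the Db group, and its log2 fold change of 0.027 (standard error 0.13) changed sign when Db replicate 2 or 3 was left out (-0.027 and -0.020). It came to 0.15 when Db replicate 1 was omitted, 0.066 when Db + Ato10 replicate 2 was, and 0.13 when both doubted libraries were. Pik3c2g (NCBI Gene 18705), the gamma class II enzyme, which is found in fewer tissues, had 44, 30 and 40 counts in Db replicates 1 to 3 and 17, 12 and 10 counts in Db + Ato10 replicates 1 to 3. Scaled to depth this was 3.50, 2.60 and 3.23 CPM against 1.12, 0.810 and 0.788 CPM. The groups did not overlap. Db + Ato10 replicate 3, which lay near the Db group for the leukocyte subunits, was here the lowest of the 6 libraries in CPM, by 10 counts against 12 in replicate 2. In TPM, which allows for gene length, replicate 2 was the lowest (0.26 against 0.29 in replicate 3). The log2 fold change of Pik3c2g was -1.77 (standard error 0.31), and stayed between -1.94 and -1.66 with any 1 library left out. Without both doubted libraries it was -1.58. On log2(FPKM + 1), a scale that understates changes of low genes, limma gave -0.50.

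The median log2 fold change was 3.20 over the 4 leukocyte subunits and -0.34 over the other 6, beside -0.0063 over all 13679 genes tested. Over the 3 leukocyte subunits that passed the filter on the Db libraries alone it was 3.05, or 1.84 without Db + Ato10 replicate 1. The difference of 3.55 became 2.24 when Db + Ato10 replicate 1 was left out, 4.10 when Db + Ato10 replicate 3 was, 3.27 when Db replicate 1 was and 3.82 when both doubted libraries were. Within each library, the median log2 CPM of the leukocyte subunits minus that of the others was -5.17, -4.06 and -4.54 in Db replicates 1 to 3 and -0.23, -2.38 and -4.30 in Db + Ato10 replicates 1 to 3. Db + Ato10 replicate 3 therefore fell within the Db range on this measure. Db + Ato10 replicates 1 and 2 lay above it. With limma on log2(FPKM + 1) and no filter the log2 fold changes were 1.51 for Pik3cd, 1.04 for Pik3cg, 1.65 for Pik3r5 and 0.77 for Pik3r6.

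A gene was called a DEG (differentially expressed gene) when its adjusted p (Benjamini-Hochberg) was under 0.05 and it differed more than 1.5-fold. With edgeR's quasi-likelihood test 0 of the 10 genes were DEGs, beside 0% of the 13679 genes tested. At an unadjusted p under 0.05 edgeR counted 3 of the 10 as higher, Pik3r5 among them, beside 11.2% of all genes, and 3 as lower, beside 5.71%. DESeq2 called Pik3cd, Pik3cg and Pik3r5 as higher, beside 5.17% of all genes, and Pik3c2g as lower, beside 1.29%. The groups did not overlap for 5 of the 10, of which 2 were higher and 3 lower, beside 23.2% of all genes. Without Db + Ato10 replicate 3 edgeR called 4 of the 10, beside 8.18% of the genes tested in that run. Without both doubted libraries edgeR called 0 of all genes tested, the 10 included, with 2754 genes at an unadjusted p under 0.05. As the 10 genes were selected on this same contrast, nothing is read from these counts.

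Levels of different genes were compared in TPM, a share of all transcripts that allows for gene length. In the Db group the order of mean TPM was Pik3ca (24.0), Pik3r1 (17.7), Pik3cb (12.9), Pik3r3 (11.98), Pik3c2a (10.5), Pik3c2g (1.21), Pik3r6 (1.07), Pik3cd (0.937), Pik3r5 (0.470) and Pik3cg (0.300). Neighbours in this order had overlapping ranges over the 3 libraries, except Pik3r1 with Pik3cb and Pik3c2a with Pik3c2g. A gap thus separated 5 abundant subunits from 5 scarce ones, and Pik3c2g was the only scarce one outside the leukocyte set. In the Db + Ato10 group Pik3r1 came first with a mean of 18.7 TPM and Pik3c2g last with 0.330 TPM. The TPM of the leukocyte subunits then spanned wide ranges, from 0.690 to 20.5 for Pik3r5 and from 1.24 to 14.0 for Pik3cd.

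The make-up of the class I catalytic subunits followed the same libraries. Pik3cd and Pik3cg together made up 2.00%, 4.73% and 3.18% of the summed TPM of Pik3ca, Pik3cb, Pik3cd and Pik3cg in Db replicates 1 to 3. In Db + Ato10 replicates 1 to 3 they made up 45.4%, 23.6% and 5.21%. All 3 shares of the Db + Ato10 group were above those of the Db group, by little in replicate 3. The summed TPM itself overlapped between the groups, with 36.2 to 41.1 in Db and 31.7 to 45.4 in Db + Ato10. Pik3ca took 58.1% to 67.4% of it in the Db group and 31.4%, 53.1% and 60.6% in Db + Ato10 replicates 1 to 3.

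**Figure D2:**
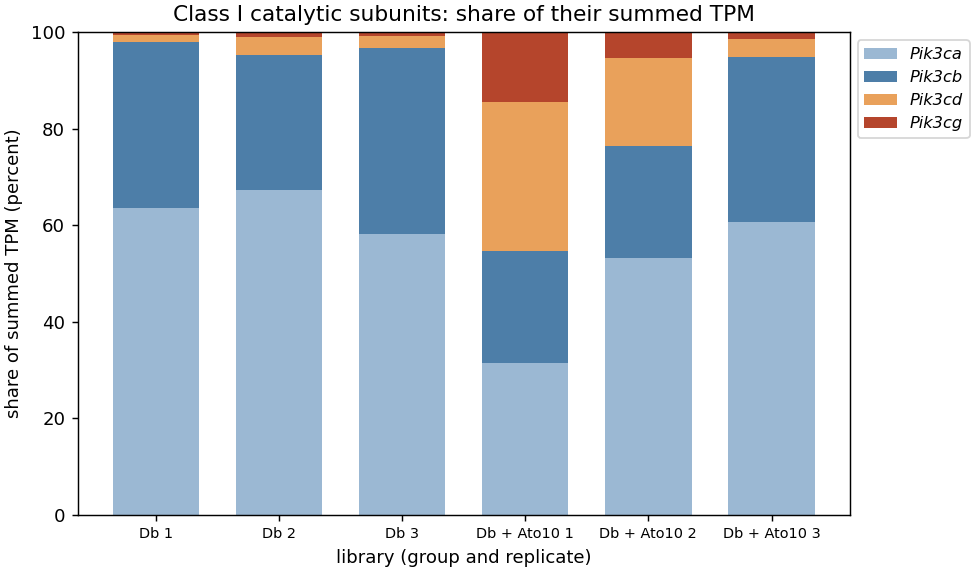
Share of each class I catalytic subunit gene in their summed TPM, in percent, as 1 stacked bar per library. Pik3cd and Pik3cg together take 45.4% of the bar in Db + Ato10 replicate 1 and 23.6% in replicate 2, against 5.21% in replicate 3 and at most 4.73% in the Db group.

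The balance of the 2 class IB adaptors differed between libraries. Pik3r5 made up 21.1%, 41.9% and 21.9% of the summed TPM of Pik3r5 and Pik3r6 in Db replicates 1 to 3, and 72.0%, 64.1% and 41.6% in Db + Ato10 replicates 1 to 3. Pik3r6 was therefore the more abundant adaptor in all 3 Db libraries and in Db + Ato10 replicate 3, and Pik3r5 in Db + Ato10 replicates 1 and 2. In the class II set (Pik3c2a, Pik3c2b and Pik3c2g), Pik3c2g took 9.04% to 10.4% of the summed TPM in the Db group and 2.27% to 3.89% in the Db + Ato10 group. Pik3r1 took 29.4% to 37.7% of the class IA regulatory TPM (Pik3r1, Pik3r2 and Pik3r3) in the Db group and 36.0% to 36.8% in the Db + Ato10 group, so its share overlapped. Pik3r3 had 19.1% to 27.0% in the Db group and 16.1% to 18.8% in the Db + Ato10 group.

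Markers of leukocytes were high in the same libraries as the leukocyte subunits. The 8 pan-leukocyte markers summed to 104, 156 and 123 CPM in Db replicates 1 to 3 and to 1912, 357 and 156 CPM in Db + Ato10 replicates 1 to 3. In every marker list, the gene said to lead has the highest mean CPM over the 6 libraries, not in each library. Here that was Lcp1, but in the Db group Cytip was higher, with a mean of 36.1 CPM against 26.8. The median log2 fold change of the pan-leukocyte markers was 3.20, and the list holds 1 gene, Cytip, at 0.038. Over the 3 leukocyte subunits that passed the filter on the Db libraries alone the median was 3.05. With Db + Ato10 replicate 1 left out, the markers had a median of 1.58, these 3 subunits 1.84, and Cytip a value of -0.43. The subunits were chosen with their difference known, so nothing is read from these medians side by side. Over the 6 ways to leave out 1 library Cytip ran from -0.43 to 0.28. The 9 macrophage markers summed to 114, 184 and 142 CPM in the Db group and to 2941, 787 and 222 CPM in the Db + Ato10 group, with a median log2 fold change of 3.22. Cd14 led in the mean of the 6 libraries, but among single libraries only in Db + Ato10 replicate 1, and Csf1r led in the Db group. Set against the marker sums, the 4 leukocyte subunits had 3.89 to 4.85 CPM per 100 CPM of macrophage markers in the Db group and 4.15 to 4.77 in the Db + Ato10 group, so the ratios overlapped. That overlap depended on Csf1r, which had 58.7, 52.4 and 59.8 CPM of the sums in Db replicates 1 to 3. In Db + Ato10 replicates 1 to 3 Csf1r had 270, 94.1 and 71.4 CPM. Without Csf1r in the sums, every Db + Ato10 ratio would lie below every Db ratio. Per 100 CPM of pan-leukocyte markers the subunits had 4.27 to 5.74 CPM in the Db group and 7.34, 9.27 and 5.89 CPM in Db + Ato10 replicates 1 to 3. Cytip had 38.9, 42.4 and 26.9 CPM of the marker sums in Db replicates 1 to 3 and 58.0, 24.5 and 28.6 CPM in Db + Ato10 replicates 1 to 3. It was a larger part of the Db sums, so the separation of these ratios depended on Cytip. Pik3r6 differed from the sum of the 4 subunits, with 1.18 to 1.53 CPM per 100 CPM of macrophage markers in the Db group and 0.412 to 0.851 in the Db + Ato10 group. The part of the leukocyte markers in the values of the subunits was not tested.

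Other leukocyte lists were higher in Db + Ato10 replicates 1 and 2 than in the Db group. The 8 neutrophil markers, led by S100a9, summed to 5.41 to 9.97 CPM in the Db group and to 9697, 103 and 11.3 CPM in Db + Ato10 replicates 1 to 3. The 8 T and NK cell markers reached 24.2, 18.1 and 3.39 CPM in the Db + Ato10 group, and the 7 B and plasma cell markers 337, 100.1 and 12.3 CPM. Cd3g and Jchain led these lists in the mean of the 6 libraries but not in every library. In the Db group the T and NK cell list had 2.46 to 6.59 CPM and the B and plasma cell list 3.74 to 21.8 CPM. Db + Ato10 replicate 3 lay within both of these ranges. Of the tested genes, 2 of 4 in the neutrophil list, 4 of 4 in the T and NK cell list and 2 of 3 in the B and plasma cell list passed the filter only together with the Db + Ato10 libraries, so no median is given for these lists. In each of these leukocyte lists 0 markers were at 0 in every library. The 7 fibroblast and pericyte markers summed to 137 to 196 CPM in the Db group and to 1622, 675 and 255 CPM in Db + Ato10 replicates 1 to 3. Col1a2 led this list in the mean of the 6 libraries but not in every library. The median of the 7 markers was 2.42, or 0.71 without Db + Ato10 replicate 1. The part of these cells in the values of the subunits was not tested.

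Tubule markers were present in every library. The 7 thick ascending limb markers, led by Umod, summed to 8698, 9463 and 8887 CPM in Db replicates 1 to 3 and to 4761, 2295 and 6229 CPM in Db + Ato10 replicates 1 to 3. Their median log2 fold change was -1.03, beside -1.77 for Pik3c2g. The 6 distal convoluted tubule markers, led by Slc12a3, had a median of -1.01, with sums of 1765 to 2759 CPM in the Db group and 727 to 1376 CPM in the Db + Ato10 group. The 8 collecting duct markers, led by Aqp2, had a median of -0.62, with sums of 661 to 1033 CPM against 402 to 674 CPM. The 9 proximal tubule markers, led by Slc34a1, summed to 7150 to 9775 CPM in the Db group and to 1047, 4210 and 9030 CPM in Db + Ato10 replicates 1 to 3, so replicate 3 was in the Db range. Their median was -0.80, or -0.29 without Db + Ato10 replicate 1, -1.71 without Db + Ato10 replicate 3 and -1.65 without both doubted libraries. The 6 podocyte markers, led by Podxl, and the 7 endothelial markers, led by Pecam1 in the mean of the 6 libraries, had medians of -0.042 and -0.29, and of -0.61 and -0.45 without Db + Ato10 replicate 1. The podocyte median changed sign with other libraries left out, to 0.25 without Db replicate 1, 0.26 and 0.052 without Db + Ato10 replicates 2 and 3, and 0.32 without both doubted libraries. It was -0.15 and -0.20 without Db replicates 2 and 3. The endothelial median was 0.0098 with Db + Ato10 replicate 2 left out and -0.44 with replicate 3 of that group left out. Podocyte sums were 382 to 587 CPM in the Db group and 206 to 604 CPM in the Db + Ato10 group, and endothelial sums were 322 to 399 CPM and 158 to 404 CPM. None of these epithelial and endothelial markers was at 0 in every library (0 in each list), and their part in the level of Pik3c2g was not tested.

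**Figure D3:**
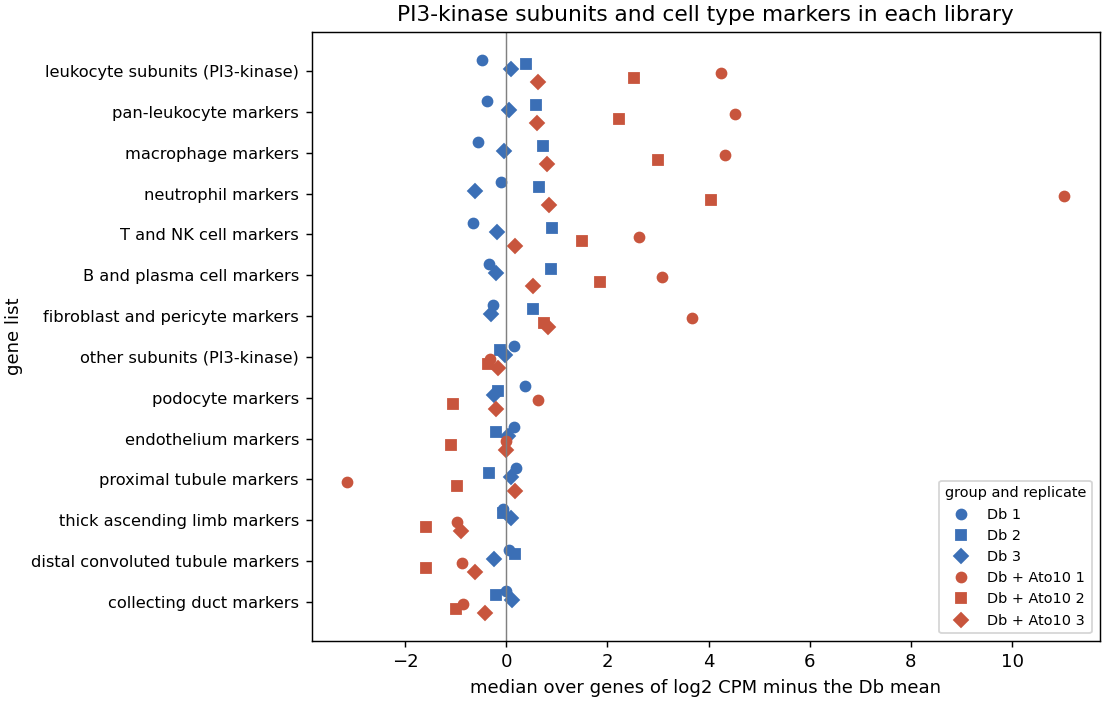
Median over the tested genes of each list of log2 CPM minus the mean of the Db libraries, with 1 point per library (blue for the Db group, red for the Db + Ato10 group, a marker shape per replicate). The 4 leukocyte PI3-kinase subunits, Pik3r5 included, lay at 4.24, 2.52 and 0.63 in Db + Ato10 replicates 1 to 3. The pan-leukocyte markers lay at 4.52, 2.23 and 0.62, and the other subunits at -0.32, -0.36 and -0.16.

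The genes whose profile over the 6 libraries was nearest to that of a subunit were found by the mean absolute difference of log2 CPM centred on each gene's mean. For Pik3cd the nearest were C1qb (0.070), Evi2a (0.093) and Bin2 (0.096), beside a median of 1.43 over all genes tested. For Pik3cg they were Gpr35 (0.084), Cybb (0.092) and Psd4 (0.10). C1qb encodes a chain of complement C1q and Cybb the catalytic chain of the phagocyte NADPH oxidase. Pik3r5 was nearest to Cd37 (0.13), Igsf6 (0.15) and Pik3ap1 (0.16), and Pik3r6 to Gas7 (0.11), Arhgap4 (0.11) and Gngt2 (0.12). For Pik3c2g they were Bmp5 (0.16), Slc12a1 (0.18) and Stpg1 (0.19), beside a median of 0.82. Slc12a1 is the sodium, potassium and chloride cotransporter of the thick ascending limb, and it had 2320, 2037 and 2453 CPM in Db replicates 1 to 3 and 868, 592 and 990 CPM in Db + Ato10 replicates 1 to 3. Bmp5 and Stpg1 were scarce, at most 1.51 and 0.969 CPM, and in Db + Ato10 replicate 3 both were at 0.158 CPM, under that library's floor of 0.236 CPM.

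The pathway around the subunits was followed in 6 lists with 87 genes outside the 10, of which 84 were tested and the others had too few counts. Pik3ap1 is both among the other PI3-kinase genes and among the leukocyte receptors and effectors, and is counted once in these totals. Of the 84 genes, 6 passed the filter only together with the Db + Ato10 libraries and are left out where 78 genes are counted. With edgeR 0 of the 84 were DEGs, beside 0% of all genes tested. At an unadjusted p under 0.05, 19 of the other 78 were higher and 4 lower, beside 11.2% and 5.71% of all genes, and DESeq2 called 11 higher and 3 lower, beside 5.17% and 1.29%. Without Db + Ato10 replicate 3, edgeR called 15 of the 78 higher and 2 lower, beside 8.18% of all genes in either direction. Without both doubted libraries it called 0 of the pathway genes, with the 6 included, beside 0 of all genes tested. At an unadjusted p under 0.05 that run had 33 pathway genes, with those of the 6 that it tested included, and 2754 genes in all. The number of genes tested in that run is not given here, so these counts have no shares and nothing is read from them. The median log2 fold change over the 78 was 0.13, or 0.089 without Db + Ato10 replicate 1, beside -0.0063 over all genes tested. The edgeR adjusted p-values of the 84 genes ran from 0.239 to 0.996.

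Among the 6 other PI3-kinase genes, Pik3ap1, an adaptor of B cells and macrophages, stood apart. Pik3ap1 had 1.51, 3.90 and 2.26 CPM in Db replicates 1 to 3 and 120.4, 14.7 and 3.62 CPM in Db + Ato10 replicates 1 to 3, with a log2 fold change of 4.18, or 1.86 without Db + Ato10 replicate 1. It was the 1 gene of this list that DESeq2 called, beside 5.17% called higher over all genes. Pik3ip1, an inhibitor of class I enzymes, and Pik3c2b, a class II enzyme, had log2 fold changes of 0.53 and 0.41. Pik3ip1 was at 0.32 without Db replicate 1 and 0.85 without Db replicate 2, and Pik3c2b at 0.25 without Db + Ato10 replicate 1. Those of Pik3r2, a class IA regulatory subunit, and of Pik3c3 and Pik3r4, the class III enzyme and its partner, were 0.11, -0.12 and -0.24, and with any 1 library left out Pik3r2 ran from -0.0015 (without Db replicate 1) to 0.20 (without Db replicate 3). Pik3r2 was at 0.066 without both doubted libraries. Leaving out replicate 1 of the Db group gave -0.026 for Pik3c3 and 0.16 for the median of the list, which was 0.26 with all libraries. Leaving out replicate 1 of the Db + Ato10 group gave -0.077 and 0.17.

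On the insulin side, 0 of 9 receptors and adaptors were edgeR DEGs, 1 was higher and 2 were lower at an unadjusted p under 0.05, beside 11.2% and 5.71% of all genes. The 2 lower ones were called by DESeq2, beside 1.29%. They were Irs1, the docking protein that brings class IA enzymes to the insulin receptor, and Grb14, an inhibitor of that receptor. Irs1 had 36.9, 26.6 and 26.8 CPM in Db replicates 1 to 3 and 10.9, 10.5 and 19.7 CPM in Db + Ato10 replicates 1 to 3. Its log2 fold change was -1.14 (standard error 0.30), and that of Grb14 was -0.75 (standard error 0.18). The adaptors Shc1 and Grb2 had 0.43 and 0.56, and Grb2 had 0.27 without Db + Ato10 replicate 1. The list's median was -0.19, or -0.059 without Db + Ato10 replicate 2.

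The Akt and mTOR arm downstream of PIP3 had 21 tested genes with a median log2 fold change of -0.050, which changed sign to 0.011 without Db + Ato10 replicate 1 and to 0.067 without Db replicate 1. Leaving out Db replicate 3 gave -0.029, Db + Ato10 replicate 2 -0.0096 and both doubted libraries -0.0091. Of these genes, edgeR and DESeq2 each called 0, beside 0% of all genes with edgeR and 5.17% higher and 1.29% lower with DESeq2. At an unadjusted p under 0.05 with edgeR 2 of the 21 were higher, Eif4ebp1 and Akt1, a share near the 11.2% over all genes. Eif4ebp1, a repressor of translation that mTOR phosphorylates, had 16.6 to 27.1 CPM in the Db group and 139, 42.5 and 29.9 CPM in the Db + Ato10 group. Akt1, the kinase recruited by PIP3, had a log2 fold change of 0.56, or 0.35 without Db + Ato10 replicate 1, and those of Pdpk1, which phosphorylates Akt, and of Tsc2, a brake on mTOR, were -0.27 and -0.30.

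Lipid phosphatases remove the lipids that the PI3-kinases make, and the list followed here also holds protein phosphatases such as Phlpp1. The median over the 14 tested was a log2 fold change of -0.11. Omitting Db replicate 1 gave -0.024, omitting Db + Ato10 replicate 2 turned it to 0.014, and omitting both doubted libraries gave -0.073. With edgeR 0 were DEGs, and 1 was higher and 2 were lower at an unadjusted p under 0.05, beside 11.2% and 5.71% of all genes. DESeq2 called Inpp5j as lower, beside 1.29%. Inpp5d, the phosphatase of hematopoietic cells, had 8.58, 11.8 and 8.97 CPM in Db replicates 1 to 3 and 67.6, 22.4 and 9.93 CPM in Db + Ato10 replicates 1 to 3. The order of the Db + Ato10 libraries for Inpp5d was that of Pik3cd. The log2 fold changes of Inpp5j, Sacm1l and Phlpp1 were -0.86, -0.41 and -0.51.

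In the list of leukocyte receptors and effectors around PI3-kinase 17 genes were tested, and 3 of them, Fgr among them, passed the filter only together with the Db + Ato10 libraries. The median log2 fold change over the other 14 was 1.496, or 0.74 without Db + Ato10 replicate 1. With edgeR 0 of the 14 were DEGs, 7 were higher and 0 lower at an unadjusted p under 0.05, beside 11.2% and 5.71% of all genes, and DESeq2 called 6 higher, beside 5.17%. Syk, a kinase of antigen and Fc receptors that feeds class IA enzymes, had 1.67, 2.60 and 1.70 CPM in Db replicates 1 to 3 and 115, 19.6 and 3.78 CPM in Db + Ato10 replicates 1 to 3. Dock2, a PIP3-binding activator of Rac, had a log2 fold change of 3.31, or 1.93 without Db + Ato10 replicate 1. Fgr, a Src family kinase of myeloid cells, had 7, 18 and 12 counts in Db replicates 1 to 3 and 1253, 171 and 46 counts in Db + Ato10 replicates 1 to 3.

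Of the 18 tested G protein inputs of the class IB enzyme, 3, C5ar1 and Fpr1 among them, passed the filter only together with the Db + Ato10 libraries. Over the other 15 the median log2 fold change was 0.92, or 0.41 without Db + Ato10 replicate 1. With edgeR 0 of these 15 were DEGs, 8 were higher and 0 lower at an unadjusted p under 0.05, beside 11.2% and 5.71% of all genes, and DESeq2 called 5 higher, beside 5.17%. C5ar1, the receptor of complement C5a, had 0.556, 2.17 and 1.13 CPM in Db replicates 1 to 3 and 60.5, 13.0 and 2.13 CPM in Db + Ato10 replicates 1 to 3. For C5ar1, as for Pik3r5, Db + Ato10 replicate 3 lay just below Db replicate 2. The G protein subunit Gnai2 and the small GTPase Nras had log2 fold changes of 1.28 and 0.92, and Gnai2 had 0.85 without Db + Ato10 replicate 1. Fpr1, a receptor for formylated peptides on neutrophils, had 1 count in each Db library and 75.4, 3.17 and 0.867 CPM in Db + Ato10 replicates 1 to 3, and no fold is given against so few counts.

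Transcripts within a gene were not part of the choice of genes and were compared on their own. For the 6 subunits with at least 2 transcripts and 20 counts in every library, the share of the most counted transcript was tested with a two-sided exact permutation test over the 6 samples. With 3 against 3 samples this test cannot go below 0.1. Pik3r3 gave that smallest p (exact permutation test, p = 0.1 among 6 tests), with a share of 55.6% ± 9.25 (SD, n = 3) in the Db group and 29.9% ± 10.4 (SD, n = 3) in the Db + Ato10 group. The single shares of Pik3r3 were 51.9% (95% Wilson interval 47.4% to 56.5%), 66.1% (61.0% to 70.7%) and 48.7% (44.2% to 53.5%) in Db replicates 1 to 3. In Db + Ato10 replicates 1 to 3 they were 29.2% (24.7% to 34.0%), 19.8% (16.4% to 23.8%) and 40.5% (35.5% to 45.9%). The shares did not overlap between groups, but the intervals of Db replicate 3 and Db + Ato10 replicate 3 did. These intervals cover counting error only. They leave out the error of assigning reads to transcripts and the spread between samples.

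The other 5 subunits gave exact permutation p-values from 0.4 (Pik3r6) to 0.8 (Pik3r1). The leading transcript of Pik3r1 codes for a short protein of 454 residues in GENCODE M21, and another for the long form of 724 residues. The short form's transcript took 63.8% ± 9.77 (SD, n = 3) of Pik3r1 counts in the Db group and 59.9% ± 19.7 (SD, n = 3) in the Db + Ato10 group. A further Pik3r1 transcript had 461 and 178 estimated counts in Db + Ato10 replicates 1 and 2, and 0.06 or fewer in each of the other 4 libraries. It was singled out after its values were seen. For Pik3c2a the leading transcript took 12.1% of the counts in Db + Ato10 replicate 1 and 60.9% in replicate 3, and in replicate 2 the other transcripts had 0 counts.

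The promoters are shown because Pik3cd, Pik3cg and Pik3r5 were high in the same libraries while Pik3ca was not. RefSeq windows of 250 bases upstream of a transcript start (GRCm38.p6) were matched by symbol for 9 of the 10 genes, all but Pik3r6. For Pik3cd, Pik3cg, Pik3r5 and Pik3ca the window farthest upstream is printed 5′ to 3′ on the strand of the gene, with each CG dinucleotide in capitals.
Pik3cd, chr4:149698709-149698958, minus strand: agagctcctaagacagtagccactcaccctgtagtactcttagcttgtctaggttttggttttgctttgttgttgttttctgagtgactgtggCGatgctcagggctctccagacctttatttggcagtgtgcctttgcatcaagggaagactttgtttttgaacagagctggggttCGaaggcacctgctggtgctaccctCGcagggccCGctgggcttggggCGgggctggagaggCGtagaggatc
Pik3cg, chr12:32208660-32208909, minus strand: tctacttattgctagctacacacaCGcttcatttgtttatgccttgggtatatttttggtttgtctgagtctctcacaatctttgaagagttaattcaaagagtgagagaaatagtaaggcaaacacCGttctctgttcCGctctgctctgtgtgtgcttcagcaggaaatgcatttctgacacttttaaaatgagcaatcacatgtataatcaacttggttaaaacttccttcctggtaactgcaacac
Pik3r5, chr11:68431875-68432124, plus strand: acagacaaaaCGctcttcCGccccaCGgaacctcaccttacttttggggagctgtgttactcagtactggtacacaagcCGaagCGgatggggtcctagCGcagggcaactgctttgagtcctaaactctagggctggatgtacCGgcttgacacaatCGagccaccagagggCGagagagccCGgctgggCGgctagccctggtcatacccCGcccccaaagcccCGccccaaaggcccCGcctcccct
Pik3ca, chr3:32396815-32397064, plus strand: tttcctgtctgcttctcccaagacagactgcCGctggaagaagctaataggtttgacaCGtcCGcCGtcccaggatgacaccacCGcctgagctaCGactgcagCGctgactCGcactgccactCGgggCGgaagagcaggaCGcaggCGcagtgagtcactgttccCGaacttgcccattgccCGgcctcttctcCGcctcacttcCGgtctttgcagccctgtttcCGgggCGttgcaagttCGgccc
These windows held 6 CG dinucleotides for Pik3cd, 3 for Pik3cg, 14 for Pik3r5 and 19 for Pik3ca, beside a median of 6 over 32851 windows of the same length. For Pik3cb and Pik3c2a the counts were 32 and 25, and for the window of Pik3c2g farthest upstream 2. The other windows of Pik3cd held 19 (chr4:149676090-149676339, minus strand), as many as that of Pik3ca, and 4. The letters GAGGAA, which occur in the binding motif of the myeloid factor PU.1, were searched on both strands. They were absent from the 4 printed windows, and 23.3% of all windows held them. A second window of Pik3cg, which overlaps the printed one, held 2 matches, and 2 of the 3 windows of Pik3r3 held 1 each. A match or its absence is a description of these letters only.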

How the data were processed

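Whole kidney RNA (3 Db and 3 Db + Ato10 libraries) was sequenced on a BGISEQ-500. Groups and replicate numbers come from the sample labels. The authors deposited expected counts (estimated reads, not normalized) per gene and per transcript, of which 91.3% of the gene values were exactly whole as written (a tolerance of 0), and per gene also FPKM and TPM, which are scaled to length and library size. The submitters' processing notes name HISAT, Bowtie2 2.2.5 and the build mm9; the RefSeq and GENCODE tables used here are of GRCm38, so no gene coordinates are given other than those of the RefSeq promoter windows. Kit strandedness is not given in the sources used here, and Pik3ca, Pik3cb, Pik3cd, Pik3r3 and Pik3c2a overlap other genes or pseudogenes in the RefSeq table, so reads of the partners cannot be told apart. The labels do not say that each library is a separate mouse, so p-values measure only the spread between these samples.

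Expected counts were rounded. edgeR 4.0.16 in R 4.3.3 was run with TMM normalization and the quasi-likelihood test on 13679 genes (10 counts or more in 3 or more libraries), with p-values adjusted over all of them (Benjamini-Hochberg). Each standard error was derived from the log2 fold change and the F statistic. CPM used TMM library sizes, and its log2 a prior count of 2. No 2 libraries were identical (0 pairs). Alternatives were DESeq2 1.42.0, upper-quartile normalization, no filter and a stricter one, a replicate block, limma 3.58.1 on log2(FPKM + 1) and log2(FPKM + 0.1), and each library left out, where medians cover the genes that passed the filter in that run. Leaving out both Db replicate 1 and Db + Ato10 replicate 3 was chosen after seeing the data. The fit was also run on simulated data, and no outcome of that run is used here. Exact tests used scipy 1.17.1, and figures matplotlib 3.10.9 in Python 3.11.15.

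The subunits and gene lists were chosen with earlier results of these data known. The text names all 10 subunits, in each pathway list the 4 tested genes with the smallest unadjusted edgeR p (all where a list has 6 or fewer), in each marker list the gene with the highest mean CPM, and the 3 genes nearest in profile to 5 subunits. The mean behind each leading marker is over the 6 libraries. Cytip and Csf1r were named after their values were seen. Some genes that this rule or the lists name are not reported here.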

Additional observations from a re-analysis of the deposited data

How the results depend on the processing

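The counts of DEGs depended on the tool and on 1 library. Over all genes, edgeR called 0 DEGs, with 2314 genes at an unadjusted p under 0.05, DESeq2 called 884, limma on log2(FPKM + 0.1) called 1, and edgeR with each library left out called from 0 to 1106, the highest without Db + Ato10 replicate 3. Among all 84 tested pathway genes outside the 10 subunits, edgeR called 0 (29 at an unadjusted p under 0.05) and DESeq2 17. With each library left out edgeR called from 0 to 20 of them. These counts include the 6 genes that passed the filter only together with the Db + Ato10 libraries. Among the other 78, 19 were higher and 4 lower at an unadjusted p under 0.05 with edgeR, and DESeq2 called 11 higher and 3 lower. Over all genes 11.2% were higher and 5.71% lower at that p with edgeR. DESeq2 called 5.17% of all genes higher and 1.29% lower, and edgeR without Db + Ato10 replicate 3 called 8.18%. The cause was not tested.

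The leukocyte minus other difference in median log2 fold change (3.55) kept its direction in every alternative run, with 2.24 to 4.10 when each library was left out. The subunits were chosen with this difference known, so its direction over runs of the same counts is no support for it. The 3.55 includes Pik3r5, which passed the filter only together with the Db + Ato10 libraries. The difference was 1.78 with limma on log2(FPKM + 1) and 1.54 with no FPKM filter, a scale that understates changes of low genes. Pik3c2a changed sign without Db replicate 2 or 3, with -0.027 to 0.15 over the 6 libraries left out. With each library left out, the change in share of the leading transcript (Db + Ato10 minus Db, in points) ran from -3.59 to 9.28 for Pik3cb, from -10.2 to 7.49 for Pik3r1 and from -3.5 to 40.5 for Pik3c2a, all through 0. Of 147 alternative values for the log2 fold changes of the subunits, 139 moved by less than the spread between replicates, 6 moved by more and 2, those of Pik3c2a, changed sign. That spread is the larger of the 2 SDs of log2 CPM within a group. Leaving out a library can hardly move a value by more than that, so the 139 are no measure of stability. Pik3r6 at 0.39 and Pik3r5 at 2.12, both without Db + Ato10 replicate 1, are among the 139. The 6 were all with limma. On log2(FPKM + 1) Pik3r5 was at 1.65 and Pik3c2g at -0.50, each both with and without the filter, and Pik3cg at 1.04 without it. On log2(FPKM + 0.1) Pik3c2g was at -1.40. The cause was not tested.

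Replicate numbers are shared between the groups, but samples of the same number did not deviate together (correlations -0.15, 0.061 and 0.21). With the replicate block edgeR called 0 DEGs among the 13679 genes tested, with 1856 at an unadjusted p under 0.05. Of the 84 pathway genes it called 0, with 18 at that p. The 84 include the 6 that passed the filter only together with the Db + Ato10 libraries, and nothing is read from the 18. The leukocyte minus other difference was 2.90. Depth limits the scarce subunits: Pik3r5 had 7 to 24 counts in the Db group and Pik3c2g 10 to 17 in the Db + Ato10 group.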
